A study of Mus musculus with 4 samples.

Results

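The connexins examined here were 5 genes of the gap junction network, Gjb2, Gjb6, Gja1, Gjb1 and Gjc1, taken by gene symbol. All 5 were present among the 27998 genes listed for the single cell libraries and the 48816 genes listed for the single nucleus library, and they were 5 of the 20 mouse connexin genes looked up. RNA came from the stria vascularis (SV) of untreated CBA/J mice at postnatal day 30. Tissue of several mice was pooled for each suspension, so that a library is a pool of animals and not 1 mouse. There were 3 captures of whole cells, dissociated with trypsin and profiled by single cell RNA-Seq (scRNA-Seq), and 1 capture of nuclei, profiled by single nucleus RNA-Seq (snRNA-Seq). Both are droplet methods in which a barcode stands for a cell or nucleus and a unique molecular identifier (UMI) for 1 captured RNA molecule.

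Connexins are membrane proteins that assemble in sixes into hemichannels, and hemichannels of neighbouring cells dock to form gap junction channels that pass ions and small molecules. In the cochlear lateral wall, gap junctions join basal cells with intermediate cells and with the fibrocytes of the spiral ligament, a route by which potassium reaches the intermediate cells. Gjb2 encodes connexin 26 and Gjb6 encodes connexin 30, the main connexins of the cochlea, and loss of either is a known cause of hereditary deafness. Gja1 (connexin 43) is widespread in connective tissue, heart and glia, Gjb1 (connexin 32) is known from liver and myelinating Schwann cells, and Gjc1 (connexin 45) from vessels and the cardiac conduction system.

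Gjb2 and Gjb6 are neighbours in the mouse genome. In mm10 coordinates Gjb2 lies on the minus strand of chromosome 14 at chr14:57098600-57104702 and Gjb6 on the same strand at chr14:57123303-57133611, with 18600 bases and 1 annotated gene, Gm4491, between them. Gja1 lies at chr10:56377330-56402513 (plus strand), Gjb1 at chrX:101376378-101385629 (plus strand) and Gjc1 at chr11:102799579-102819700 (minus strand). No other annotated gene overlapped any of the 5. The sequences around the starts of the neighbouring pair are shown because these 2 genes carried nearly all UMIs of the 5. Each runs from 250 bases before to 50 bases after the RefSeq start (GRCm38.p6, minus strand, chr14:57104653-57104952 for Gjb2 and chr14:57133562-57133861 for Gjb6), with GC boxes (GGGCGG on either strand) in capitals.
Gjb2: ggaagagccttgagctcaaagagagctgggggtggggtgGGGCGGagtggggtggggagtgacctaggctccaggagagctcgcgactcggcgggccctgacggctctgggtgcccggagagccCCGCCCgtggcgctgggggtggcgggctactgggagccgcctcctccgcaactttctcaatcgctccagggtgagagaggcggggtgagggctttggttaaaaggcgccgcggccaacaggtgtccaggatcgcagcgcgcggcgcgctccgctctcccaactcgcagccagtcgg
Gjb6: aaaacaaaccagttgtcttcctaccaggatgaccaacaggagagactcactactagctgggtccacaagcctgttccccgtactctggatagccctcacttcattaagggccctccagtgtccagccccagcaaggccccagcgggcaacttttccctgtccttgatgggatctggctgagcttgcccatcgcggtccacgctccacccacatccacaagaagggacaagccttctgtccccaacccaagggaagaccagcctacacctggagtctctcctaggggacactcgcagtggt
The Gjb2 window held 70.0% G and C, 27 CpG dinucleotides and 2 GC boxes. The Gjb6 window held 57.3% G and C, 6 CpG dinucleotides and no GC box. Over 32851 RefSeq windows of this length the medians were 52.7% G and C and 7 CpG dinucleotides, and 35.7% of windows held a GC box. Neither window held TATAAA or CCAAT on either strand, which 13.6% and 37.4% of all windows held. These are letter matches and were not tested for any role.

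Cells and nuclei were clustered apart, without using any connexin, and clusters were named from marker genes, so that basal stands here for basal-like and likewise for the other types. After removal of barcodes with under 200 genes and of called doublets, 377, 1315 and 1462 cells and 9754 nuclei were kept, from libraries of 2811309 to 22332501 UMIs. Of the cells, 123 were basal, 992 intermediate, 133 marginal and 31 spindle/root. Of the nuclei, 663 were basal, 1474 intermediate, 2592 marginal and 206 spindle/root. No name was given to 1644 cells and 3932 nuclei, whose median shares of mitochondrial RNA were 57.1% and 49.7%. Each of the 4 types had UMIs of all its listed markers, except that Pmel and Oca2, melanosome genes, had none in intermediate cells. Between 0 and 32 barcode sequences were shared by any pair of libraries.

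Of the 5 genes, Gjb2 and Gjb6 carried nearly all UMIs. In the kept cells Gjb2 had 11498 UMIs in 1886 cells and Gjb6 had 12567 UMIs in 2088 cells, and in the kept nuclei the totals were 3102 and 3870 UMIs. Gja1 had 6 UMIs in the cells and 26 in the nuclei, Gjb1 had 1 and 4, and Gjc1 had 8 and 11. The latter 3 genes were at or near the limit of detection in every SV type.

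**Figure D1:**
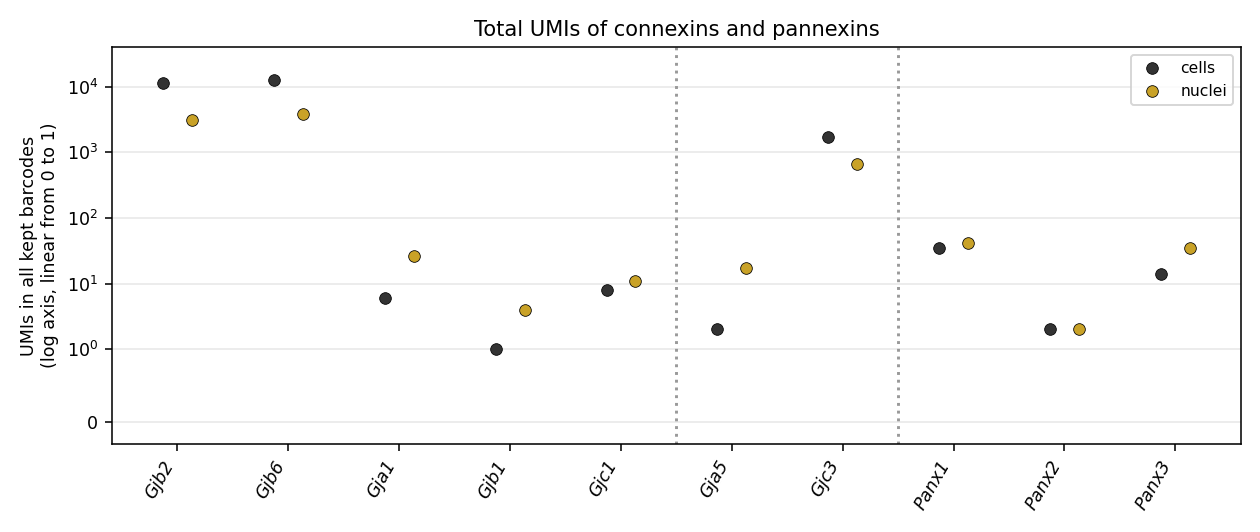
Total UMIs in all kept cells (dark) and all kept nuclei (yellow) of the 5 connexins examined, of Gja5 and Gjc3, and of 3 pannexins, divided by dotted lines; the vertical axis is logarithmic above 1. Gjb2, Gjb6 and Gjc3 stand far above the rest in both, and every other gene shown lies at or below 42 UMIs.

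Gjb2 was highest in basal cells. Its level, in UMIs per 1000000 UMIs of the same type and capture (CPM), was 2954, 3275 and 2164 in the basal cells of captures 1, 2 and 3, or 2798 ± 572 (SD, n = 3 captures). Intermediate cells held 779, 744 and 641 CPM (722 ± 71.6), and marginal cells 394, 349 and 261 CPM (335 ± 67.8). Every basal value lay above every intermediate value and every intermediate value above every marginal value. Spindle/root cells held 480 and 581 CPM in captures 2 and 3 (531 ± 71.8, n = 2 captures), and 674 CPM in the 4 such cells of capture 1, too few to enter the mean. Captures 2 and 3 fell between intermediate and marginal cells, and capture 1 fell within the intermediate range.

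Gjb6 followed the same first steps, with a smaller gap between basal and intermediate cells and a larger one between intermediate and marginal cells. Basal cells held 1699, 1926 and 1425 CPM (1683 ± 251, n = 3 captures), and intermediate cells 1050, 1181 and 890 CPM (1040 ± 146). Marginal cells held 426, 401 and 329 CPM (385 ± 50.3), and spindle/root cells 569 and 355 CPM (462 ± 151, n = 2 captures), with 808 CPM in the 4 cells of capture 1. Basal, intermediate and marginal values did not overlap, whereas spindle/root and marginal values did.

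**Figure D2:**
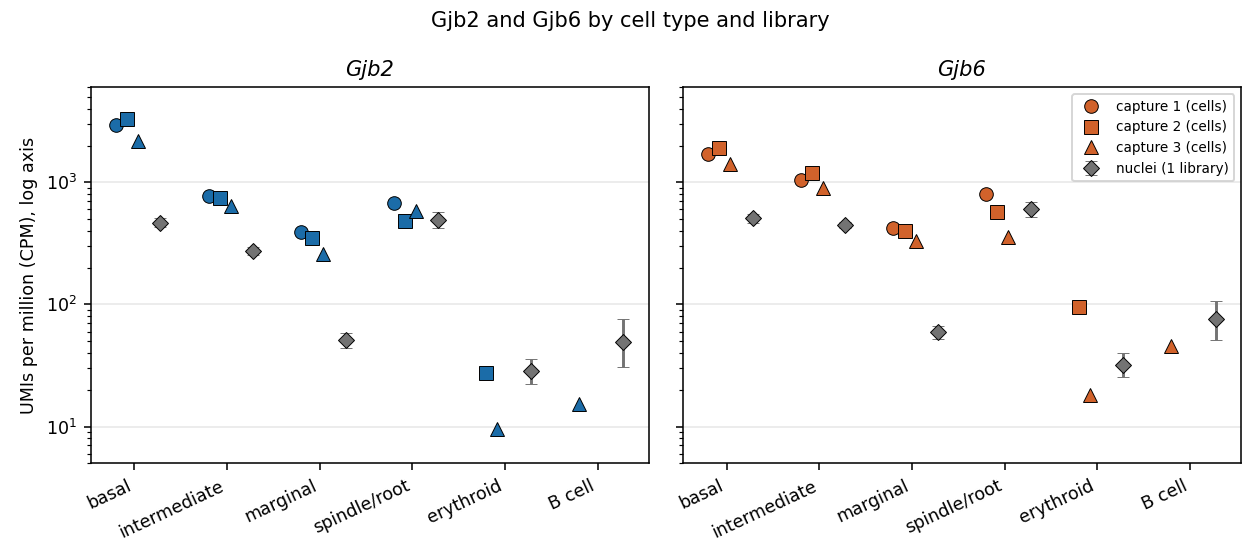
Gjb2 (left) and Gjb6 (right) in CPM on a logarithmic axis, by cell type; coloured symbols are captures of cells with at least 4 cells of the type, and grey diamonds are the nucleus library with its 95% Poisson interval. Basal cells lie highest for both genes, with Gjb2 between 2164 and 3275 CPM, and erythroid and B cells, which are not expected to express either gene, lie lowest among cells.

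The sums per capture and type were compared in 1 model with capture as a block (edgeR quasi-likelihood test, Benjamini-Hochberg adjustment over 7469 genes). Of the 5 connexins, 2 (Gjb2 and Gjb6) passed its filter on low counts, and the other 3 were not tested. Against the mean of the other 3 types, both were higher in basal cells, where 15.9% of all genes tested were called higher and 10.2% lower. Gjb2 was higher there by 2.46 on the log2 scale (SE 0.10, edgeR adjusted p = 2.58e-40) and Gjb6 by 1.56 (SE 0.10, edgeR adjusted p = 2.35e-25), each in 3 of 3 captures. In intermediate cells, where 17.5% of genes were called higher, Gjb6 was higher by 0.95 (SE 0.10, edgeR adjusted p = 8.86e-14, 3 of 3 captures). Gjb2 was not called in intermediate cells, with a log2 difference of 0.18 (SE 0.11, edgeR adjusted p = 0.214, above the others in 2 of 3 captures), and without TMM scaling its value was -0.15. That scaling moved the median of all genes in intermediate cells from -0.29 to 0.03 on the log2 scale.

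Both genes were lower in marginal cells, where 10.4% of genes were called lower. There Gjb2 fell by 1.74 on the log2 scale (SE 0.13, edgeR adjusted p = 1.66e-22) and Gjb6 fell by 1.39 (SE 0.12, edgeR adjusted p = 9.78e-18), in 3 of 3 captures each. In spindle/root cells, where 9.43% of genes were called lower, Gjb2 fell by 0.89 (SE 0.17, edgeR adjusted p = 1.85e-05) and Gjb6 fell by 1.12 (SE 0.17, edgeR adjusted p = 7.64e-08), each in both captures tested. Both spindle/root calls were lost at a clustering resolution of 0.4 (-0.45 and -0.57, edgeR adjusted p = 0.151 and 0.0587). That of Gjb2 was also lost without capture 2 (-0.64, edgeR adjusted p = 0.0867), where 1 sum of these cells remained and was assumed to vary like the sums of the other types.

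Setting the types against each other gave the order of the levels. Of 12 contrasts, 6 pairs of types for each of Gjb2 and Gjb6, 11 passed the adjusted threshold of 0.05, where 10.5% to 19.0% of all genes were called in a given direction of a given pair. For Gjb2 the order was basal, intermediate, spindle/root and marginal, and each step differed in this fit. Intermediate minus basal was -1.71 on the log2 scale (SE 0.12), intermediate minus spindle/root was 0.80 (SE 0.18, edgeR adjusted p = 0.000253) and marginal minus spindle/root was -0.64 (SE 0.20, edgeR adjusted p = 0.0121). For Gjb6 basal cells were followed by intermediate cells (-0.46, SE 0.11, edgeR adjusted p = 0.000556). Marginal and spindle/root cells were not told apart for Gjb6 in this fit (-0.20, SE 0.20, edgeR adjusted p = 0.513).

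The place of spindle/root cells in the Gjb2 order was the least stable. The step from intermediate to spindle/root cells was not called without TMM scaling (0.37, edgeR adjusted p = 0.113), without capture 2 (0.60, edgeR adjusted p = 0.112) or at a clustering resolution of 0.4 (0.41, edgeR adjusted p = 0.224). The step from spindle/root to marginal cells was not called without capture 3 (-0.26, edgeR adjusted p = 0.578) or with no filter on low counts (-0.47, edgeR adjusted p = 0.125). For Gjb6 the step from basal to intermediate cells was not called at resolution 0.4 (-0.14, edgeR adjusted p = 0.544).

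**Figure D3:**
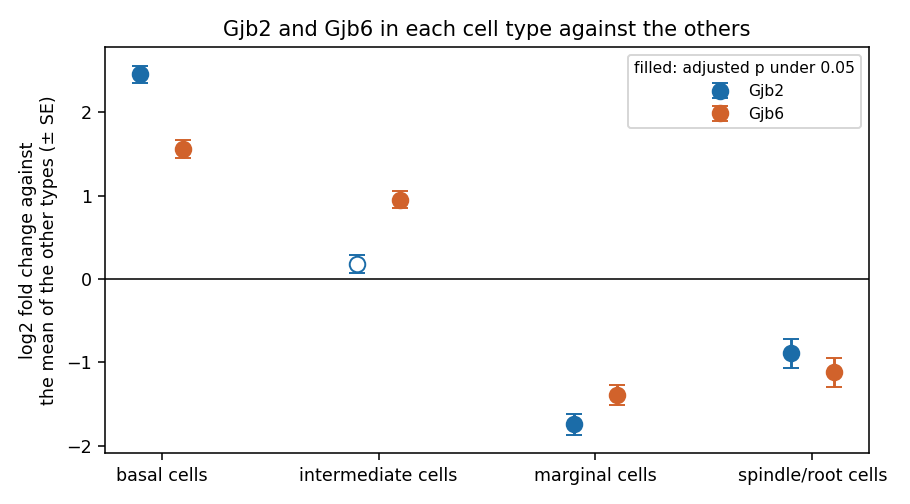
Log2 fold change (± SE) of Gjb2 and Gjb6 in each cell type against the mean of the other 3 types, from edgeR on sums per capture; filled points passed an adjusted p of 0.05. Basal cells show the highest values of both genes (2.46 and 1.56), and the open point is Gjb2 in intermediate cells (0.18).

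The balance between the 2 genes also differed by type. Of the UMIs of Gjb2 and Gjb6 together, Gjb2 made up 63.5%, 63.0% and 60.3% in basal cells of captures 1, 2 and 3, against 42.6%, 38.7% and 41.9% in intermediate cells. Marginal cells lay between, at 48.1%, 46.5% and 44.2%. The 3 ranges did not overlap, and no test was run on the shares. In spindle/root cells the share was 45.8% in capture 2 and 62.1% in capture 3, a spread wider than that of any other of the 4 types.

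Among the marginal cells, the level of both genes moved with the RNA of intermediate cells. The 10 intermediate cell markers summed to 22850 CPM in intermediate, 8204 CPM in basal, 6620 CPM in marginal and 999 CPM in spindle/root cells, against 413 CPM in erythroid cells and 642 CPM in B cells. Erythroid markers made up 69.6% of UMIs in erythroid cells, which lowers the CPM of all other genes there. Of the 10 markers, 7 had a UMI in marginal cells, and Tyrp1, Pmel and Oca2 were at 0. The marginal cells fell into 3 clusters. A cluster of 59 cells held 10020 CPM of intermediate markers with 481 CPM of Gjb2 and 567 CPM of Gjb6. A cluster of 42 cells held 3400 CPM of these markers with 195 CPM of Gjb2 and 204 CPM of Gjb6. The last 32 marginal cells held 411 CPM of intermediate markers, below the value of B cells. They held 26.5 CPM of Gjb2 (95% Poisson interval 9.72 to 57.7) and 53.0 CPM of Gjb6 (27.4 to 92.6). Marginal markers went the other way, at 4091, 5497 and 8275 CPM in the same order.

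**Figure D4:**
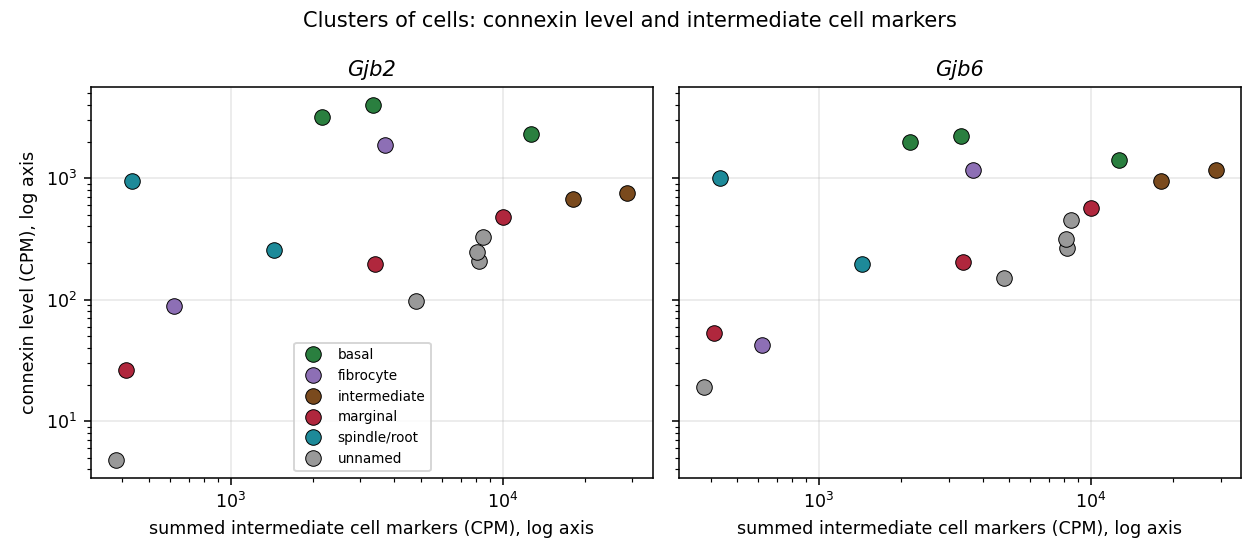
Level of Gjb2 (left) and Gjb6 (right) in clusters of cells, captures pooled, against the summed level of 10 intermediate cell markers, both in CPM on logarithmic axes and coloured by named type. The 3 marginal clusters run from 26.5 to 481 CPM of Gjb2 as the markers run from 411 to 10020 CPM, while the 3 basal clusters lie between 2298 and 3998 CPM.

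The same was seen within each capture. When the cells of each type and capture were divided at the median share of intermediate markers, the 67 marginal cells at or below it held 161, 125 and 65.8 CPM of Gjb2 in captures 1 to 3, and the 66 above it held 549, 517 and 396 CPM. The latter were also deeper, with a median of 13302.5 UMIs against 8854. Basal cells went the other way, with 3623 CPM of Gjb2 at or below the median and 2408 CPM above it. Nuclei divided likewise did not repeat these patterns. Marginal nuclei held 49.0 CPM of Gjb2 at or below their median and 52.4 CPM above it, and basal nuclei 394 and 530 CPM. With marginal, basal and spindle/root cells above the median left out of the fit, and intermediate cells kept whole, the log2 difference of Gjb2 was 3.08 in basal cells and -3.49 in marginal cells, and Gjb2 was called higher in intermediate cells (0.61, edgeR adjusted p = 0.00335). The cells left out were chosen by a marker share that moved with Gjb2 in marginal and basal cells. The differences and calls of that fit partly follow from this choice and are no separate support for the order of types. In that fit spindle/root cells were called lower for neither gene (-0.21 for Gjb2 and -0.05 for Gjb6, edgeR adjusted p = 0.573 and 0.909), and Gjb2 in intermediate against spindle/root cells was not called (0.61, edgeR adjusted p = 0.0649). That fit took sums of at least 2 cells, so that 2 spindle/root cells of capture 1 entered it as a sum. The spindle/root cells kept held 1465, 376 and 797 CPM of Gjb2 in captures 1, 2 and 3 (2, 8 and 6 cells). Intermediate cells held 779, 744 and 641 CPM. For Gjb6 these spindle/root cells held 1768, 421 and 755 CPM. Marginal minus spindle/root was -2.46 for Gjb2 and -2.43 for Gjb6 there (edgeR adjusted p = 5.13e-12 and 1.33e-12). For Gjb6 that contrast was not called in the main fit. The part that intermediate cell RNA in marginal barcodes plays in their connexin levels was not tested. Per 1000 UMIs of intermediate markers, intermediate cells held 28.4, 31.3 and 32.3 UMIs of Gjb2 and marginal cells 43.6, 53.0 and 48.0 in the 3 captures.

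Cells without a name held both genes as well. A cluster of 333 unnamed cells, whose leading genes included the marginal marker Kcne1, held 329 CPM of Gjb2 and 452 CPM of Gjb6 beside 8466 CPM of intermediate markers. A cluster of 29 unnamed cells led by the macrophage genes Lyz2 and C1qa had 1 UMI of Gjb2 and 4 of Gjb6.

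Basal cells held both genes in all 3 of their clusters. The clusters of 54, 42 and 27 cells held 2298, 3200 and 3998 CPM of Gjb2 and 1424, 1969 and 2240 CPM of Gjb6. The median basal cell held 26 UMIs of Gjb2, with a lowest of 1 and a highest of 135, and 16 UMIs of Gjb6. Intermediate cells were more even, their clusters of 541 and 451 cells holding 759 and 670 CPM of Gjb2 and 1173 and 940 CPM of Gjb6. The median intermediate cell held 4 UMIs of Gjb2 and 6 of Gjb6.

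Spindle/root cells were split. The 18 cells of a cluster led by Epyc, a small proteoglycan gene, held 954 CPM of Gjb2 (95% Poisson interval 787 to 1146) and 1012 CPM of Gjb6 (840 to 1209). The 13 cells of a cluster led by Wfdc18 and Anxa1 held 255 CPM of Gjb2 (182 to 349) and 197 CPM of Gjb6 (133 to 281). The former was higher in each capture, with Gjb2 at 1197 against 33.3 CPM in capture 1, 649 against 296 CPM in capture 2 and 1320 against 321 CPM in capture 3, though on only 2 to 10 cells each. The nuclei showed a like split, with 798 CPM of Gjb2 and 1010 CPM of Gjb6 in 105 nuclei of a cluster whose leading genes included Epyc, and 144 and 126 CPM in 101 nuclei of a cluster led by Wfdc18. In the naming, markers of cochlear supporting cells scored second in both nucleus clusters. Their scores were 2.329 against 4.375 in the cluster with Epyc and 1.175 against 3.159 in that led by Wfdc18. No test was run between the spindle/root clusters.

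Fibrocytes, the connective tissue cells of the spiral ligament, were divided as well. A cluster of 43 cells led by Otos and Coch, which encode abundant fibrocyte proteins, held 1888 CPM of Gjb2 and 1175 CPM of Gjb6. A cluster of 41 cells led by Dcn, a collagen-binding proteoglycan gene, held 88.9 and 42.4 CPM.

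Among basal, intermediate, marginal and spindle/root nuclei the order was different from that in cells. Gjb2 stood at 466 CPM in basal nuclei (95% Poisson interval 427 to 508), 494 CPM in spindle/root nuclei (424 to 572), 274 CPM in intermediate nuclei (254 to 295) and 50.8 CPM in marginal nuclei (44.4 to 57.9). Gjb6 stood at 506 CPM in basal (466 to 549), 600 CPM in spindle/root (522 to 685), 447 CPM in intermediate (421 to 474) and 59.5 CPM in marginal nuclei (52.5 to 67.1). Of all named types of nuclei, fibrocytes held the highest level of both genes, on 24 nuclei of a cluster whose leading genes included Otos and Coch. They held 974 CPM of Gjb2 (734 to 1268), above the intervals of basal and spindle/root nuclei. Their 655 CPM of Gjb6 (461 to 903) had an interval that overlapped those of basal and spindle/root nuclei. Unnamed clusters of 37, 48 and 36 nuclei also scored fibrocyte first. These held 494, 180 and 220 CPM of Gjb2 and 441, 168 and 126 CPM of Gjb6. The cluster of 37 likewise had Otos and Coch among its leading genes. The rank of fibrocyte nuclei thus rests on which of these clusters received a name. With 1 nucleus library no test between types was possible. The intervals of basal and spindle/root nuclei overlapped for both genes, as did those of basal and intermediate nuclei for Gjb6. Intermediate nuclei formed 2 clusters, of which the 178 deeper nuclei held 450 CPM of Gjb2 and 752 CPM of Gjb6 and the other 1296 held 217 and 348 CPM.

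Marginal nuclei held both genes within the intervals of B cell nuclei and above those of erythroid nuclei, types that should lack both. Erythroid markers made up 74.5% of UMIs in erythroid nuclei, against 1.70% in B cell nuclei. This lowers the CPM and the thinned shares of all other genes in erythroid nuclei. The gap to erythroid nuclei is therefore not read as a difference in connexin level. B cell nuclei held 49.4 CPM of Gjb2 (30.6 to 75.5) and 75.3 CPM of Gjb6 (51.5 to 106), and erythroid nuclei 28.4 (22.4 to 35.5) and 32.1 CPM (25.7 to 39.6). A UMI of Gjb2 was found in 7.95% of marginal nuclei (median depth 1395 UMIs), in 8.17% of B cell nuclei (median depth 1572.5 UMIs) and in 13.8% of erythroid nuclei (median depth 5268.5 UMIs). Thinned to 1000 UMIs the shares were 4.78%, 4.53% and 2.99%. Intermediate, basal and spindle/root nuclei stood above all of these, at 20.7%, 30.5% and 22.8% of thinned nuclei.

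The difference between cells and nuclei varied by type. The mean of the captures over the nucleus value was 6.0 for Gjb2 and 3.33 for Gjb6 in basal cells, 2.63 and 2.33 in intermediate cells, 6.59 and 6.48 in marginal cells, and 1.07 and 0.77 in spindle/root cells. Counted over genes that both lists share and leaving out mitochondrial genes, the ratios for Gjb2 were 6.64, 3.64, 8.18 and 1.07 in the same order. Gjb2 made up 48.0% of the UMIs of both genes in basal nuclei (95% exact binomial interval 45.0 to 50.9), below the 60.3% to 63.5% of basal cells, whereas in intermediate nuclei the share of 38.0% (35.8 to 40.3) lay close to that of intermediate cells. Preparation, gene list and depth differ between cells and nuclei along with the compartment, and they cannot be told apart here. Marginal cells also held more intermediate marker RNA than marginal nuclei, at 6620 against 1474 CPM. The cluster of 32 marginal cells lowest in these markers held 26.5 CPM of Gjb2 and 53.0 CPM of Gjb6. Marginal nuclei held 50.8 and 59.5 CPM. The part of intermediate cell RNA in the marginal ratios was not tested. Basal nuclei rested mainly on 1 cluster of 618, and with another setting in the naming of clusters 45 basal nuclei remained, at 333 CPM of Gjb2 and 622 CPM of Gjb6. These 45 nuclei held 23770 CPM of intermediate markers, against 3650 CPM in the cluster of 618. Intermediate was the class scored second in their naming, so their levels are not read as those of basal nuclei alone. Taken whole, basal nuclei held 2888 CPM of marginal, 5253 CPM of intermediate and 1751 CPM of basal markers. Basal cells held 310, 8204 and 4310 CPM of the same lists. The part of RNA of other types in the levels, order, share and ratios of basal nuclei was not tested.

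Gjb2 and Gjb6 were detected together in most cells of the 4 types. All 123 basal cells held a UMI of both (95% exact binomial interval 97.0% to 100%). In intermediate cells 906 of 992 held both (91.3%, interval 89.4 to 93.0), 64 held Gjb6 only, 13 held Gjb2 only and 9 held neither. By capture the shares with both were 95.6%, 93.5% and 87.6%. Of 133 marginal cells 80 held both (60.2%, interval 51.3 to 68.5), with 72.2%, 60.9% and 54.4% by capture, and 24 held neither. Of 31 spindle/root cells 17 held both (54.8%, interval 36.0 to 72.7), at 60% and 41.7% in captures 2 and 3. The marginal share was 38.4% with a clustering resolution of 1.2 and 39.3% with doublets kept, and the cause was not tested.

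Over whole types these shares stood above those of erythroid and B cells, but not in every marginal cluster. In erythroid cells, at a median of 10193.5 UMIs against 6191 in intermediate cells and 11057 in basal cells, 4 of 100 held both genes (4.0%, interval 1.10 to 9.93) and 73 held neither. Erythroid markers made up 69.6% of the UMIs of erythroid cells, which leaves fewer for other genes. In B cells, at a median of 2554 UMIs, 1 of 39 held both (2.56%). In the marginal cluster of 32 cells 2 held both (6.25%, interval 0.766 to 20.8), which overlaps the erythroid interval. Erythroid and B cells also held less intermediate marker RNA than marginal cells, at 413 and 642 against 6620 CPM.

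Nuclei showed lower shares at their lower depth. Both genes were found in 174 of 663 basal nuclei (26.2%, interval 22.9 to 29.8), 246 of 1474 intermediate nuclei (16.7%, 14.8 to 18.7), 35 of 206 spindle/root nuclei (17.0%, 12.1 to 22.8) and 25 of 2592 marginal nuclei (0.965%, 0.625 to 1.42). At own depth 12 of 486 erythroid nuclei (2.47%, 1.28 to 4.27) and 3 of 208 B cell nuclei (1.44%, 0.298 to 4.16) held both. The marginal share lay below these values, but its interval overlapped both of theirs. At 1000 UMIs the marginal share was 0.270%, above the 0.119% of erythroid nuclei and below the 0.498% of B cell nuclei. Erythroid markers took up most UMIs of erythroid nuclei, as given above, which lowers their share at 1000 UMIs. Nuclei with Gjb6 only outnumbered nuclei with Gjb2 only, at 173 against 104 in basal and 383 against 203 in intermediate nuclei.

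**Figure D5:**
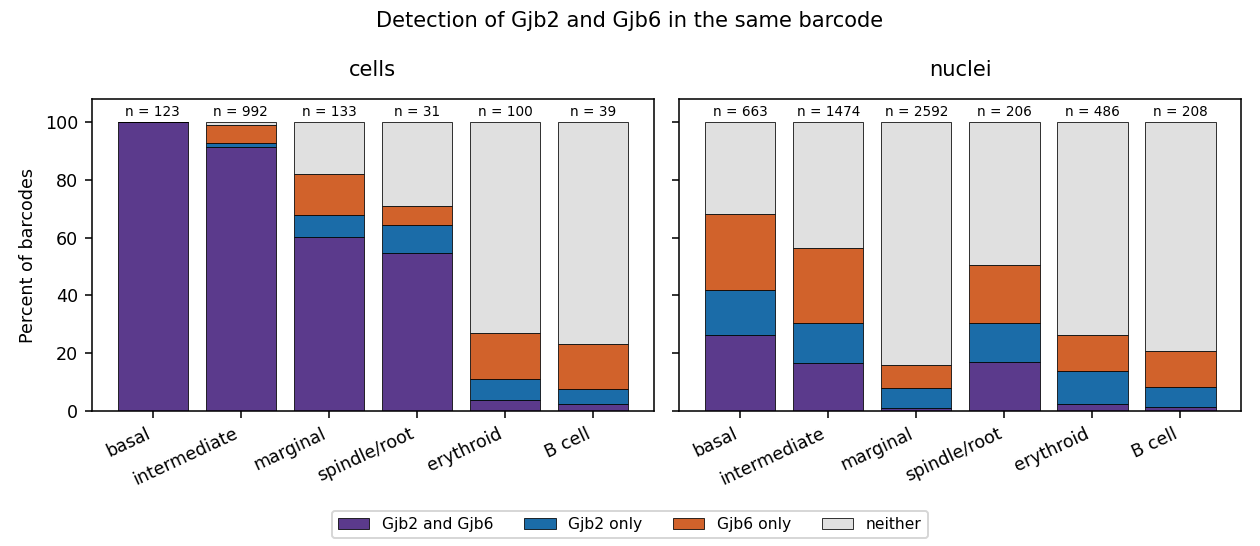
Percent of barcodes with a UMI of both Gjb2 and Gjb6, of 1 gene only or of neither, by cell type, in cells with the 3 captures pooled (left) and in nuclei (right), each at its own depth; n is the number of barcodes. Both genes are found in 100% of basal cells and 91.3% of intermediate cells, and in 26.2% of basal nuclei and 16.7% of intermediate nuclei.

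To set cells and nuclei at 1 depth, each barcode was thinned to 1000 UMIs, leaving out 53, 49, 23 and 6 marginal, intermediate, basal and spindle/root nuclei and no cell of these types. Both genes were then expected in 73.1% of basal cells against 14.0% of basal nuclei and in 33.1% of intermediate cells against 7.70% of intermediate nuclei. The shares were 23.0% of spindle/root cells against 10.7% of spindle/root nuclei, and 8.76% of marginal cells against 0.270% of marginal nuclei. At equal depth the share of cells was thus above that of nuclei in all 4 types. Marginal cells also held more intermediate marker RNA than marginal nuclei, as given above. With mitochondrial UMIs left out and 500 UMIs kept the values were 55.3% against 6.66% in basal and 22.6% against 2.92% in intermediate barcodes. No test between preparations was run.

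How far the pair went together beyond the share of each gene varied by type. In intermediate cells the share with both genes was 1.01 times the product of the 2 single shares at own depth and 1.03 times at 1000 UMIs. In marginal cells it was 1.19 and 1.69 times, and in spindle/root cells 1.39 and 1.91 times. Within single clusters at own depth it was 0.999, 1.14 and 0.97 times in the marginal clusters of 59, 42 and 32 cells, and 1.11 and 2.08 times in the spindle/root clusters of 18 and 13 cells. Within the marginal cluster of 59 cells 96.6% held Gjb2 and 98.3% held Gjb6, and within that of 32 cells 18.8% and 34.4% did. The ratio cannot lie far above 1 where nearly all cells hold a gene. This applies at own depth to the cluster of 59 and to intermediate cells, of which 97.8% held Gjb6. In the cluster of 32 cells the ratio rests on 2 cells with both genes. In nuclei at 1000 UMIs the ratio was 1.22 in basal, 1.21 in intermediate, 1.73 in spindle/root and 0.99 in marginal nuclei. At own depth the ratio was 1.284 over intermediate nuclei, and 1.137 and 1.111 within their clusters of 1296 and 178. Over spindle/root nuclei it was 1.506, and 1.265 and 1.515 within the clusters of 105 and 101. Basal nuclei gave 1.196, with 1.213 and 1.009 in the clusters of 618 and 45. Marginal nuclei gave 1.339, with 1.251 and 1.143 in clusters of 2540 and 52. The Pearson r of the levels over barcodes, which share library and depth and are not replicates, was 0.66 in basal, 0.18 in intermediate, 0.74 in marginal and 0.87 in spindle/root cells. In nuclei it was lower in each type, at 0.167, 0.144, 0.00464 and 0.386 in the same order. Median depth by type was 1395 to 1531 UMIs in nuclei and 6191 to 11577 UMIs in cells. No r was taken at equal depth, so that the lower r of nuclei is not read as looser pairing. The r of marginal and of spindle/root cells also pools clusters that differ in level, as given above.

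Gja1, Gjb1 and Gjc1 gave no pattern by type that the depth could show. Gja1 had 3 UMIs in intermediate cells, 1 in marginal cells and none in basal and spindle/root cells, where 0 UMIs allow up to 2.18 and 11.0 CPM. In nuclei it had 5 UMIs in marginal, 2 in intermediate and 17 in unnamed nuclei, the latter spread over 11 nuclei. Gjb1 had 1 UMI in a basal cell and 4 UMIs in 1 unnamed nucleus, and none in the other types. Gjc1 had 1 UMI in basal, 1 in intermediate and 2 in marginal cells, 3 in fibrocytes, and 1 to 3 in each of the 4 types of nuclei. These counts were too low for the model and no order of types is given for them.

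Among the other 15 connexins, Gjc3 alone was abundant. It encodes connexin 29, best known from myelinating glia. Gjc3 had 1692 UMIs in 1020 cells and 657 UMIs in 575 nuclei. Its level was 152, 176 and 154 CPM in intermediate cells (161 ± 13.4, n = 3 captures), 153, 152 and 138 CPM in basal cells (148 ± 8.54), and 63.8, 43.2 and 35.2 CPM in marginal cells. Spindle/root cells had 2 UMIs in all. Against the mean of the other types Gjc3 was higher in intermediate cells by 2.33 on the log2 scale (SE 0.20, edgeR adjusted p = 3.34e-19) and in basal cells by 1.83 (SE 0.25, edgeR adjusted p = 8.83e-10), each in 3 of 3 captures. In marginal cells the difference was -0.58 (SE 0.43, edgeR adjusted p = 0.36), against a mean that includes the spindle/root cells. In pairs of types, marginal minus intermediate was -2.18 (SE 0.17) and marginal minus basal was -1.81 (SE 0.205). Marginal minus spindle/root was 2.26 (SE 0.77), and intermediate minus basal was 0.38 (SE 0.14). Marginal Gjc3 also moved with the intermediate markers, from 63.0 CPM in the cluster with most of them to 1 UMI in the cluster with fewest. In nuclei Gjc3 stood at 149 CPM in intermediate, 72.5 CPM in basal and 5.24 CPM in marginal nuclei. It stood at 2.99 CPM in erythroid nuclei and at 4.71 CPM in B cell nuclei, the latter on 2 UMIs. All of Gjb2, Gjb6 and Gjc3 were found together in 577 intermediate cells (58.2%) and 89 basal cells (72.4%).

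Other family members were rare. Gja5 had 2 UMIs in cells and 17 in nuclei. Of the pannexins, relatives in channel structure that do not usually form junctions, Panx1 had 35 UMIs in cells and 42 in nuclei, Panx3 had 14 and 35, and Panx2 had 2 and 2.

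The list of junction partners, which anchor, bind or regulate connexins or adherens junctions, held 14 gene symbols. Nov and Ccn3 among them stand for the same gene, with counts under Nov only. Of these symbols 11 were tested. In basal cells 4 were higher and none lower, where 15.9% and 10.2% of all genes tested were called, with a median log2 difference of 0.33 over the list against 0.03 over all genes. Among these 4 was Tjp1 (2.61, SE 0.17), itself a marker used to name basal cells. Its calls are therefore not independent of the naming. In intermediate cells 4 were higher and 5 lower (17.5% and 17.3% of all genes, median 0.21 against 0.03). In marginal cells 2 were higher and 2 lower (15.8% and 10.4% of all genes, median -0.21 against 0.07), and in spindle/root cells 1 was higher and 3 lower (13.0% and 9.43% of all genes, median -0.38 against -0.10). Ctnnb1, which encodes the adherens junction protein beta-catenin, was higher in basal cells by 1.14 (SE 0.11, edgeR adjusted p = 2.53e-15) and in intermediate cells by 1.22 (SE 0.11, edgeR adjusted p = 9.6e-18). Cdh1 (E-cadherin) was higher in basal cells by 1.54 (SE 0.11, edgeR adjusted p = 3.92e-22), and in intermediate cells it fell by 0.68 (SE 0.12, edgeR adjusted p = 1.43e-06). Cav1 (caveolin-1) was higher in intermediate cells by 1.86 (SE 0.18, edgeR adjusted p = 1.97e-16). Nedd4, a ubiquitin ligase known to act on connexin 43, was higher in basal cells by 0.32 (SE 0.12, edgeR adjusted p = 0.0414) and not called in the other 3 types.

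The genes whose pattern was most like that of Gjb2 over the 11 sums of the fit were Neat1 (a nuclear long noncoding RNA, Pearson r of log2 CPM 0.975), Clic4 (an intracellular chloride channel protein, 0.962), Gstm1 (a glutathione transferase, 0.958), Cp (ceruloplasmin, 0.958) and Smo (a Hedgehog pathway protein, 0.955). For Gjb6 they were Copz2 (0.976), Ptn (pleiotrophin, 0.967), Csrp1 (0.961), Bsg (basigin, 0.939) and Qpct (0.93). Among 7468 genes Gjb6 ranked 38 in likeness to Gjb2 and Gjb2 ranked 16 in likeness to Gjb6, at r = 0.905. Over 9 named types of nuclei the r of Gjb2 with Gjb6 was 0.971. For the genes listed with Gjb2 it was 0.522, 0.552, 0.828, 0.858 and 0.73 in the same order. For those listed with Gjb6 it was 0.748, 0.825, 0.917, 0.797 and 0.216. The sums share captures and types, and these values describe likeness of pattern only.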

How the data were processed

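The deposited files hold raw UMI counts per gene and barcode, which the authors made with Cell Ranger 2.0.0 on mm10 per the labels; the nucleus library uses another, longer gene list, and the annotation behind it is not given in the sources used here. The members, gene lists and tests of this report were chosen with earlier results of these data known. Barcodes with at least 200 genes were kept, and 1, 14, 19 and 947 barcodes were removed as doublets by Scrublet rank (scanpy 1.11.5), at 0.8% per 1000 barcodes. Cells and nuclei were clustered apart in Seurat 5.3.0 (R 4.3.3; 2000 variable genes without connexins and pannexins, components with a JackStraw p under 0.0001, resolution 0.8). Mixed clusters were divided again on 10 components. A cluster was named when at least 3 markers were detected in 10% of its barcodes and raised 2 times over the rest, the class scored second stayed under 0.67 of the first, and no marker of another class outnumbered its own among the 10 leading genes. The 50 CPM added when ranking leading genes was set after the clusters were seen.

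Counts were summed per capture and type with at least 5 cells, which left 11 sums, and tested with edgeR 4.0.16 (filterByExpr, TMM, quasi-likelihood, capture as a block), with DESeq2 1.42.0 as an alternative; scripts were tested on simulated data. The fit without cells above the median share of intermediate markers took sums of at least 2 cells. SE is that of the log2 fold change. The sums of a capture come from 1 suspension, which pairs them. Over 2862 genes, deviations of the same capture correlated at 0.015 to 0.285 in 15 pairs of types, with 9 above 0.1. The captures are pools of mice. With capture as a block, p-values rest on the spread of the sums left after type and capture are fitted. The estimate of that spread borrows from all genes tested, so that it is not the spread of 3 captures for 1 gene. Nuclei are 1 library and were not tested. Thinned shares are expected values under the hypergeometric distribution, and intervals (95%, exact Poisson or binomial) cover counting error only. Limits for 0 UMIs use 3 counts. Named genes were the 5 members, up to 6 other family genes and 4 partners with the most UMIs, and the 5 genes most alike to Gjb2 and Gjb6 in log2 CPM (prior count 2). Tjp1 was named besides as a partner that is also a basal marker. Gene positions are those of GENCODE vM21, and promoter windows are those of RefSeq. No promoter window of Gjc1 was used. Some other connexins are not reported here.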

Additional observations from a re-analysis of the deposited data

Results flagged for a closer look

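Intermediate against spindle/root barcodes gave opposite signs in cells and nuclei for both abundant connexins. For Gjb2 the difference was 264.2 and 59.9 CPM in captures 2 and 3 of the cells and -220.1 CPM in the nuclei (274.1 CPM in intermediate and 494.2 CPM in spindle/root nuclei). For Gjb6 it was 612.3 and 534.7 CPM in the cells and -153.2 CPM in the nuclei (446.5 against 599.7 CPM). The difference between cells and nuclei was not tested, since there is 1 nucleus library. The spindle/root group pools a cluster of high and a cluster of low connexin level in both preparations, with 18 and 13 cells and 105 and 101 nuclei.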

How the results depend on the processing

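Of 12 pair contrasts 11 passed, 9 at resolution 0.4, 10 without TMM scaling or a filter on low counts, and 10 to 11 without 1 capture. Gene and type combinations called higher numbered 3, and 3 to 4 under the alternatives. Those called lower numbered 4, and 2 at resolution 0.4 and with marginal, basal and spindle/root cells above the median share of intermediate marker UMIs left out, 3 to 4 when 1 capture was left out. Without the replicate block the counts were 3 higher, 4 lower and 11 pairs, so that the block changed none of them. The log2 difference of Gjb2 in intermediate cells was -0.15 (edgeR adjusted p = 0.267) without TMM scaling, 0.32 (adjusted p = 0.0174) with no filter on low counts and 0.34 (adjusted p = 0.00296) at resolution 1.2; beyond the small size of the difference, the cause was not tested.

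The share with both Gjb2 and Gjb6 fell with fewer UMIs per barcode, by construction. Thinned to 1000 UMIs, to 500 UMIs and to 500 UMIs that were not mitochondrial, it was 73.07%, 43.13% and 55.29% in basal cells, 33.13%, 13.16% and 22.56% in intermediate cells, 8.757%, 3.05% and 5.265% in marginal cells and 23.03%, 11.39% and 13.38% in spindle/root cells. In nuclei it was 14.0%, 5.175% and 6.657% in basal, 7.7%, 2.462% and 2.919% in intermediate, 0.2695%, 0.06983% and 0.08286% in marginal and 10.67%, 4.937% and 5.404% in spindle/root nuclei. Marginal cells gave 38.44% at resolution 1.2 and 39.3% with no removal of doublets, and marginal nuclei 1.449% with no removal of doublets; the cause was not tested. Leaving out 1 capture gave 89.56% to 93.99% in intermediate, 58.26% to 63.22% in marginal and 50.0% to 63.16% in spindle/root cells, and 100% in basal cells. Cells were not paired with nuclei, since the nuclei are 1 library from a capture of their own. The 31 spindle/root cells and the depth of the nuclei limit what can be resolved.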
